A study of Homo sapiens with 18 samples.

Results

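The 8 genes described here encode the proteins of the box H/ACA small nucleolar ribonucleoprotein (snoRNP) and of telomerase: DKC1, GAR1, NHP2, NOP10, NAF1, SHQ1, WRAP53 and TERT. They were chosen by symbol, and all 8 were found among the 26372 symbols of the table. The RNA came from SH-SY5Y, a neuroblastoma-derived human cell line that takes on neuron-like features in differentiation media, and was measured by RNA-seq. Every library came from cells given a lentiviral ZNHIT3 construct made from the FUGW plasmid. ZNHIT3 carries a zinc finger of the HIT type and takes part in the assembly of box C/D snoRNPs, the sister class of the box H/ACA particles. There were 6 groups of 3 libraries: ZNHIT3-WT, ZNHIT3-C14R and a deletion construct, each at day 0 and at day 18. The deletion was labelled ZNHIT3-∆251-254 in replicate 1, ∆251-255 in replicate 2 and ∆251-256 in replicate 3, and these were treated as 1 group, since the titles call all of them Depleted. Day 18 cells were cultured in serum-free medium with 10 μM retinoic acid, 50 ng/ml BDNF, 20 mM KCl and 2 mM dibutyryl cyclic AMP, started 48 hours after infection. The labels do not say that the endogenous ZNHIT3 gene was altered, so all groups may carry it beside the construct. They also do not say whether replicates were separate cultures, so p-values measure only the spread between these libraries.

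Box H/ACA snoRNAs guide the conversion of uridine to pseudouridine in ribosomal and spliceosomal RNA. Each works in a particle with the pseudouridine synthase dyskerin, encoded by DKC1, and the small proteins NOP10, NHP2 and GAR1. SHQ1 holds newly made dyskerin before assembly, and NAF1 takes the place of GAR1 in the immature particle. The telomerase RNA, TERC, ends in a box H/ACA domain and carries the same core proteins; TERT is the reverse transcriptase that copies it, and WRAP53 (TCAB1) brings TERC and related RNAs to Cajal bodies. Inherited defects in several of these genes cause dyskeratosis congenita, a disorder of short telomeres.

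Levels are in FPKM, which divides a gene's fragments by its length and by the library's mapped fragments. Absolute depth is unknown; from the smallest steps between values, day 0 libraries had 58.6% to 84.1% of the depth of the deepest library and day 18 libraries 81.8% to 100%. SNORD3A, a small nucleolar RNA, made up 6.87% to 58.6% of the FPKM sum at day 0 and 1.01% to 15.1% at day 18. The delivered gene, ZNHIT3, stood at 538 ± 6.33 FPKM (SD, n = 3) with the WT construct at day 0, 424 ± 7.09 with C14R and 302.5 ± 9.4 with the deletion. The day 18 values were 1153 ± 46.1, 653 ± 88.9 and 301.5 ± 9.89 in the same order. Noradrenergic neuroblastoma markers, which define this line, summed to 783 to 821 FPKM at day 0 and 1039 to 1226 at day 18, although TH stayed under 1 FPKM at day 0. The 5 glial markers summed to 3.12 to 4.78 FPKM at day 0 and 7.26 to 9.16 at day 18. Of these, SOX10 and GFAP stayed under 1 FPKM in every library. The 2 glial markers that passed the filter on low values were called higher in each construct. Rises called over all tested genes were 38.2% (WT), 37.9% (C14R) and 38.6% (deletion). From day 0 to day 18 all 14 genes of a cycling-cell list fell in each construct, and their summed level went from 585 to 628 FPKM to 206 to 266. Over all tested genes, 34.0% (WT), 35.0% (C14R) and 34.4% (deletion) were called lower by limma. The summed level of 8 mesenchymal markers went from 863 to 1039 FPKM to 81.9 to 93.3, and that of 10 neuronal markers from 908 to 953 to 2008 to 2242. The part of these shifts in the changes described next was not tested.

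From day 0 to day 18, DKC1 and 2 of its 3 small partners fell in every construct, while NOP10 differed little between the days. Over all constructs, the day 18 mean was 46.4% of the day 0 mean for DKC1, 33.7% for GAR1, 55.1% for NHP2 and 90.7% for NOP10 (9 libraries each). TERT, at most 1.14 FPKM in any library, went to 15.8%. Among the assembly and trafficking factors the shares were 63.5% for NAF1, 82.0% for SHQ1 and 85.9% for WRAP53. In bulk RNA, fewer cells that express a gene and less RNA per cell cannot be told apart.

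**Figure D1:**
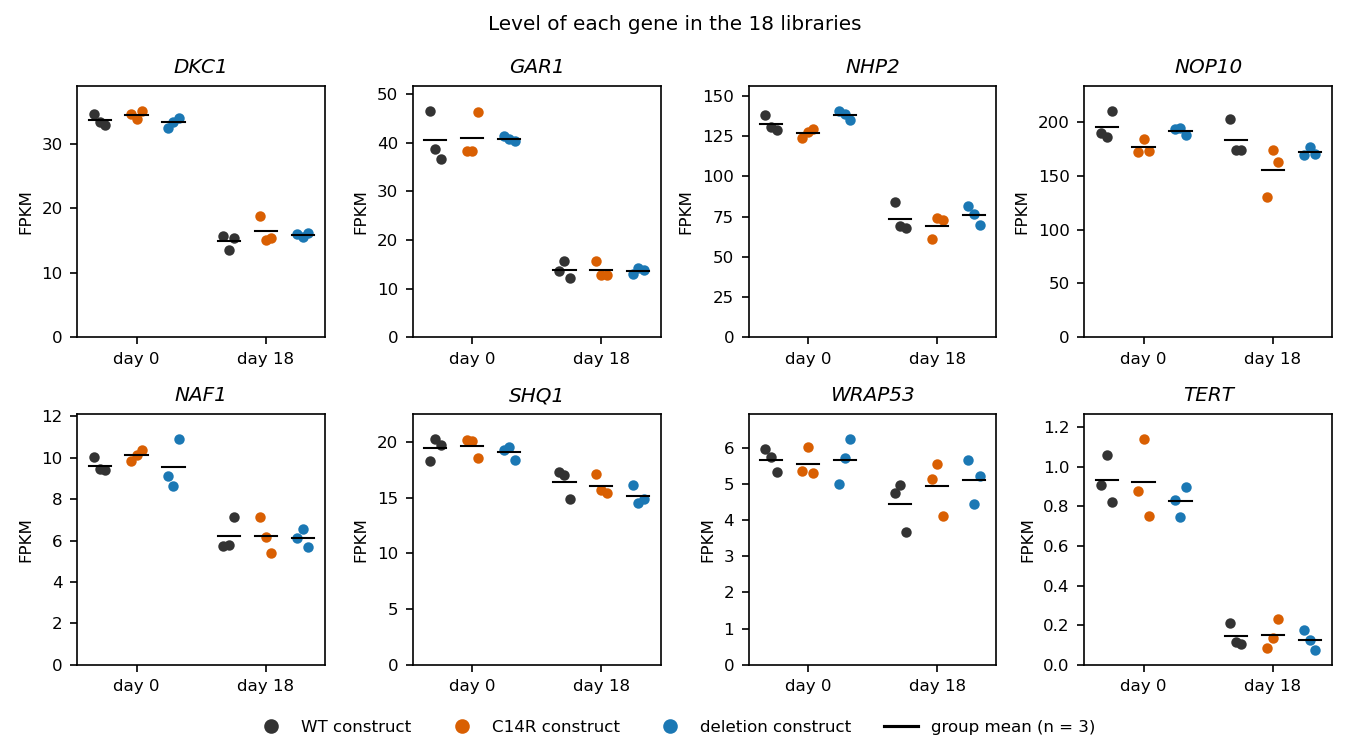
FPKM (y axis, linear from 0, a scale for each gene) of the 8 genes in all 18 libraries, ordered by day (x axis) and coloured by construct; points are libraries and bars are means of 3. DKC1, GAR1, NHP2, NAF1, SHQ1 and TERT separate by day without overlap, and NOP10 and WRAP53 overlap between the days.

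For DKC1, the WT libraries went from 34.7, 33.4 and 32.9 FPKM to 15.7, 13.6 and 15.4. The C14R libraries went from 34.7, 33.8 and 35.1 to 18.7, 15.1 and 15.5. The deletion libraries went from 32.5, 33.4 and 34.0 to 16.0, 15.5 and 16.2. The days were far apart in each construct, and within a day the constructs overlapped. On the log2(FPKM + 1) scale, where low genes change by less than their true fold, DKC1 fell by 1.13 with the WT construct (SE 0.06, limma adjusted p = 5.4e-11), by 1.03 with C14R and by 1.02 with the deletion. In WT, 5.21% of all tested genes had a lower change than DKC1.

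GAR1, the glycine- and arginine-rich protein that joins the mature particle last, fell furthest among the core proteins. WT libraries went from 46.5, 38.7 and 36.6 FPKM to 13.5, 15.6 and 12.2. In C14R they went from 38.3, 38.2 and 46.4 to 15.7, 12.8 and 12.7, and with the deletion from 41.4, 40.8 and 40.5 to 13.0, 14.3 and 13.8. All day 18 values lay under all day 0 values. GAR1 fell by 1.49 in WT (SE 0.10, limma adjusted p = 4.5e-10) and by 1.51 in each of C14R and deletion libraries.

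NHP2, an RNA-binding core protein, went from 138, 131 and 129 FPKM to 83.9, 69.3 and 67.6 in WT libraries. Over the other 2 constructs it ranged from 124 to 141 FPKM at day 0 and from 60.9 to 81.7 at day 18. It fell by 0.85 in WT (SE 0.08, limma adjusted p = 3e-08), 0.87 in C14R and 0.85 in deletion libraries. The gene overlaps the 3' end of RMND5B on the other strand over 1106 bp and has pseudogenes NHP2P1 and NHP2P2. As strand use is not given in the sources used here, its value is uncertain in size. RMND5B itself had 10.9 ± 0.739 FPKM at day 0 and 9.61 ± 1.17 at day 18 (SD, n = 9), far below NHP2.

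NOP10, the smallest core protein, which binds dyskerin directly, had the highest level of the 8 on both days. Its WT libraries measured 189, 186 and 210.1 FPKM at day 0 against 203, 174 and 174 at day 18. With C14R the values were 172, 185 and 173 against 130, 174 and 163. With the deletion they were 193, 195 and 188 against 169, 176 and 170. The days overlapped in WT and C14R and were narrowly apart in deletion libraries. The log2 change was -0.09 in WT (SE 0.08, 95% interval -0.27 to 0.09, limma adjusted p = 0.34) and -0.16 in deletion libraries (adjusted p = 0.1). In C14R it was -0.19 and passed the threshold (limma adjusted p = 0.048), but its exact permutation p was 0.3. That NOP10 call was lost in 14 of the 18 fits that left out 1 library. Without C14R replicate 1 of day 18, the lowest NOP10 value of all 18 libraries, the change was -0.07 (limma adjusted p = 0.35). The others included adjusted p of 0.065, 0.15 and 0.066 by limma without C14R replicates 1, 2 and 3 of day 0. Over all constructs NOP10 was lower at day 18 (log2 change -0.15, exact permutation test of 9 against 9 libraries, p = 0.019, adjusted p = 0.019), with overlapping days. The sign of the NOP10 change in WT turned with quantile normalization (0.08) and with small RNA genes left out and libraries rescaled (0.12), which also turned it in deletion libraries (0.06).

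Of the 7 genes that passed the filter on low values, 6 were called at day 18 in WT, all lower, where 72.2% of the 13785 tested genes were called, 38.2% higher and 34.0% lower. In C14R 6 of 7 were called, all lower, against 72.9% called, 37.9% higher and 35.0% lower. In deletion libraries 5 of 7 were called, all lower, against 73.0% called, 38.6% higher and 34.4% lower. The share of the 7 called in either direction was near the background share, and every call was a fall. The median log2 change over the 7 was -0.56 with WT, -0.62 with C14R and -0.56 with the deletion, against medians of 0.03, 0.02 and 0.03 over all tested genes. Leaving out small RNA genes and rescaling moved the median of all genes in WT to 0.21 and the share of rises among all calls from 52.9% to 68.6%. Under that scaling DKC1, GAR1, NHP2 and NAF1 stayed below 0 and past the threshold in all 3 constructs, by 0.93, 1.29, 0.64 and 0.38 in WT.

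**Figure D2:**
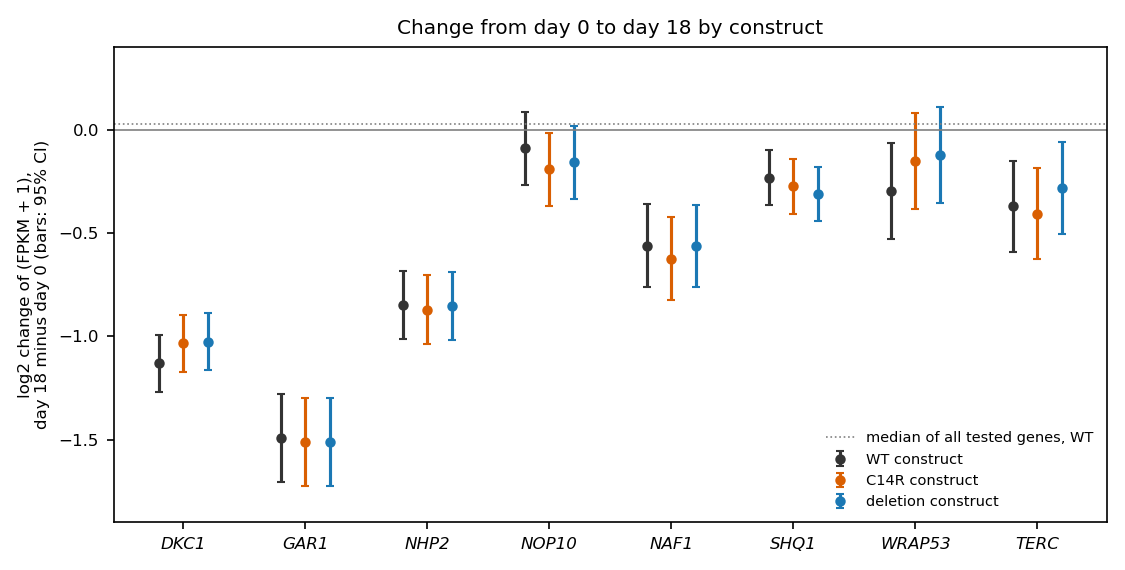
Change from day 0 to day 18 in log2(FPKM + 1) (y axis) of the 7 genes that passed the filter and of TERC (x axis), with 95% confidence intervals from limma, by construct (3 against 3 libraries each). GAR1 lies lowest at -1.49 to -1.51 and the intervals of NOP10 in WT and deletion libraries and of WRAP53 in C14R and deletion libraries include 0; the dotted line is the median of all tested genes in WT, 0.03.

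The ratio of 2 genes within a library does not depend on how libraries are scaled against each other, and it separated the core proteins. All 7 ratios share DKC1, which fell, so they are not independent of each other. An exact permutation p of 4.1e-05, before adjustment, is the smallest that 9 against 9 libraries can give. In FPKM, which is per length, there were 5.54 units of NOP10 for each unit of DKC1 at day 0 and 10.8 at day 18, a log2 difference of 0.96 (exact two-sided permutation test of 9 against 9 libraries, adjusted p = 5.8e-05 over 7 ratios). By library, the NOP10 ratio was 5.46, 5.57 and 6.38 in WT at day 0 and 13.0, 12.8 and 11.3 at day 18. For C14R it was 4.97, 5.45 and 4.92 at day 0 and 6.93, 11.6 and 10.5 at day 18, and in deletion libraries 5.94, 5.82 and 5.52 at day 0 and 10.6, 11.4 and 10.5 at day 18. No day 18 ratio was as low as any day 0 ratio, and replicate 1 of C14R was the closest to the day 0 range.

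The GAR1 ratio to DKC1 went the other way, from 1.20 at day 0 to 0.874 at day 18 (log2 difference -0.46, exact permutation, adjusted p = 0.00019). Its day ranges met in WT replicate 2 of day 18, with 1.15, while the remaining day 18 libraries lay at or under 0.924 and all of day 0 at or above 1.10. The NHP2 ratio differed less, 3.91 against 4.63 (log2 difference 0.24, exact permutation, adjusted p = 0.0074), and its days overlapped. Thus GAR1 fell more than DKC1, NHP2 fell less, and the NOP10 ratio rose the most of the 3.

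**Figure D3:**
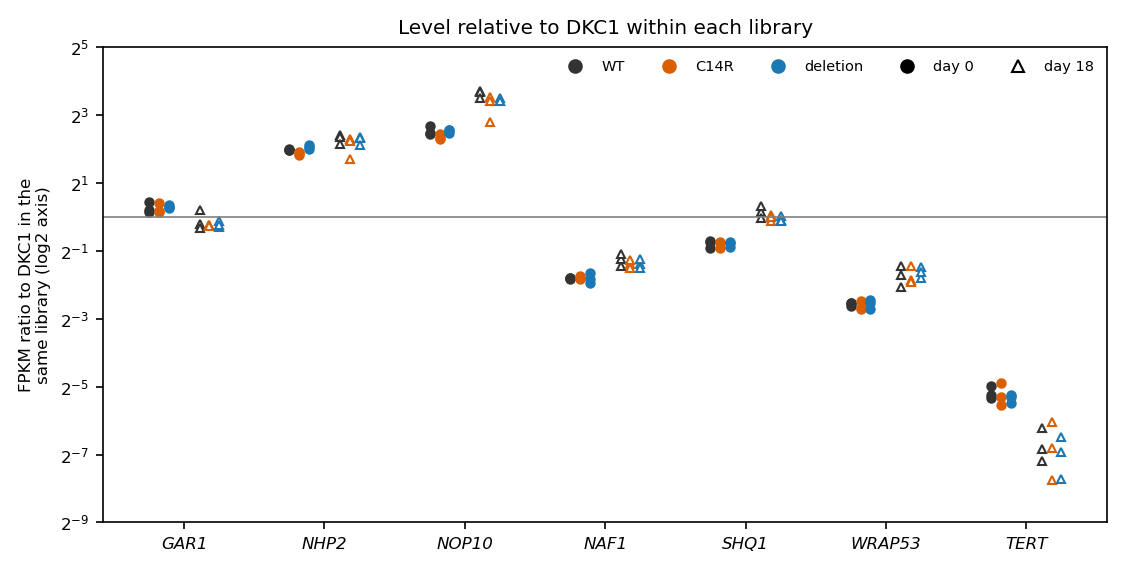
FPKM of 7 genes divided by that of DKC1 in the same library (y axis, log2-spaced; the line marks 1), filled circles for day 0 and open triangles for day 18, coloured by construct. NOP10, NAF1, SHQ1 and WRAP53 lie higher at day 18 and TERT lower, each without overlap between the days; the open triangle of C14R near the day 0 points of NOP10 is replicate 1, at 6.93.

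The stretches before the starts of the 4 core genes are shown because 3 of them fell in every construct, while the NOP10 change was small and its call depended on the construct and the setting. They come from RefSeq's promoter windows on GRCh38.p14 (250 bases before to 50 after a start) and were cut to the part upstream of the gene in both RefSeq and GENCODE release 29 and outside other protein-coding genes. Capitals mark an E-box (CACGTG) or the ETS-type octamer ACTTCCGG (on the other strand CCGGAAGT).
DKC1 (chrX:154762614-154762741, plus strand): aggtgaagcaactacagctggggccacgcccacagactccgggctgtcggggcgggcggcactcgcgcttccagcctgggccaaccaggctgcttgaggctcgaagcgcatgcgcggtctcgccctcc
GAR1 (chr4:109815260-109815509, plus strand): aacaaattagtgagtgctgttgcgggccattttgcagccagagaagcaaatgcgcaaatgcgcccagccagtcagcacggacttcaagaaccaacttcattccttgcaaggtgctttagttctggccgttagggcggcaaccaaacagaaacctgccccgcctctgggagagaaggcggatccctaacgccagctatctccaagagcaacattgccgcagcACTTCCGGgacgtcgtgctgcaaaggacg
NHP2 (chr5:178153968-178154135, minus strand): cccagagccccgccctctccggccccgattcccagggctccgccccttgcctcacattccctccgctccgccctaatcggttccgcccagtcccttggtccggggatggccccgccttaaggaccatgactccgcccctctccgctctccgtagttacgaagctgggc
NOP10 (chr15:34343178-34343314, minus strand): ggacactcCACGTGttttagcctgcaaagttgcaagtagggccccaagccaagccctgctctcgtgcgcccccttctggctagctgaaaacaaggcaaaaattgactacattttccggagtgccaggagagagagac
Those letters and the CCAAT box (ATTGG on the other strand) were searched on both strands of the whole 300-base windows, which 7 of the 8 genes had (10 windows in all; NAF1 had none). The E-box stood in NOP10 at positions -170 and -11 from the RefSeq start, in TERT at -163, and in a second GAR1 window at 32 after its start; 7.26% of the 35116 windows in the table hold it. The ETS octamer stood in GAR1 at -29 and in NOP10 at -43, against 4.14% of windows. CCAAT stood in a window of each of GAR1, NHP2, NOP10, SHQ1 and WRAP53, and 34.6% of all windows hold it. GAR1 and WRAP53 also had windows without it, so genes cannot be counted against that share of windows. The E-box of NOP10 at -11 and every CCAAT lie outside the stretches printed, and the NOP10 octamer runs past the end of its stretch, so it is not in capitals. None of the 3 was in the DKC1 window, which speaks only to its letters. The motifs were chosen after the windows had been read.

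SHQ1 and NAF1 act before the mature particle exists. In WT libraries NAF1 went from 10.0, 9.43 and 9.39 FPKM to 5.73, 5.77 and 7.16, and over the other 2 constructs from a range of 8.63 to 10.9 to one of 5.41 to 7.12. It fell by 0.56 in WT (SE 0.09, limma adjusted p = 4.4e-05), 0.62 in C14R and 0.56 in deletion libraries, without overlap. An antisense gene, AC022272.1, overlaps it over 9893 bp, so its size is uncertain without strand. SHQ1 went from 18.3, 20.3 and 19.7 FPKM to 17.3, 17.0 and 14.9 in WT libraries, and from 18.4 to 20.2 down to 14.5 to 17.1 in the others. It fell by 0.23 in WT (SE 0.06, limma adjusted p = 0.0031), 0.27 in C14R and 0.31 in deletion libraries. These SHQ1 calls were lost with small RNA genes left out (-0.03, -0.10 and -0.10, limma adjusted p of 0.64, 0.17 and 0.14). A processed pseudogene on the other strand, AC134050.1, overlaps SHQ1 over 933 bp, and SHQ1P1 is a copy by name. The SHQ1 value is therefore also uncertain in size.

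Relative to DKC1, which fell more than either, both factors were higher at day 18. The SHQ1 ratio went from 0.572 to 1.01 (log2 difference 0.82) and the NAF1 ratio from 0.288 to 0.393 (0.45), each with an adjusted p of 5.8e-05 by exact permutation and without overlap. The order of levels changed accordingly. At day 0 it was NOP10 (188 ± 11.5 FPKM, SD, n = 9), NHP2 (132 ± 5.88), GAR1 (40.8 ± 3.53), DKC1 (33.8 ± 0.855), SHQ1 (19.4 ± 0.788), NAF1 (9.76 ± 0.691), WRAP53 (5.62 ± 0.406) and TERT (0.892 ± 0.132), with no overlap between neighbours. At day 18 NOP10 (170.3 ± 18.8) and NHP2 (72.9 ± 7.13) still led. SHQ1 (15.9 ± 1.07), DKC1 (15.7 ± 1.35) and GAR1 (13.7 ± 1.25) then overlapped, followed by NAF1 (6.19 ± 0.631), WRAP53 (4.83 ± 0.662), which overlapped NAF1, and TERT (0.141 ± 0.0549).

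WRAP53 measured 5.95, 5.74 and 5.32 FPKM in WT libraries at day 0 against 4.74, 4.96 and 3.66 at day 18. With C14R it was 5.37, 6.0 and 5.31 against 5.14, 5.54 and 4.11, and with the deletion 4.98, 5.71 and 6.24 against 5.67, 4.45 and 5.20. The days were apart in WT and overlapped in the variants. It fell by 0.30 in WT (SE 0.11, limma adjusted p = 0.022). The changes of -0.15 in C14R and -0.12 in deletion libraries did not pass (adjusted p of 0.22 and 0.33), and the difference from WT was 0.15 (95% interval -0.18 to 0.47) and 0.18 (-0.15 to 0.50). Over 9 against 9 libraries the WRAP53 change was -0.19 (exact permutation p = 0.0065, adjusted p = 0.0073). That test used the deposited values without rescaling. The sign of the WRAP53 change turned under 1 of 28 alternative settings or fits in C14R (0.005) and under 1 in deletion libraries (0.06). The WT call was lost without WT replicate 1 or 2 of day 0 (adjusted p of 0.07 and 0.053), without WT replicate 3 of day 18 (-0.19, adjusted p = 0.14) and with small RNA genes left out (-0.12, adjusted p = 0.32). As strand use is not given, the WRAP53 value is uncertain in size.

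TERT, the catalytic protein of telomerase, was low on both days. Its WT libraries measured 0.909, 1.06 and 0.824 FPKM at day 0 against 0.212, 0.117 and 0.106 at day 18. With C14R the values were 0.876, 1.14 and 0.751 against 0.0861, 0.134 and 0.233. With the deletion they were 0.830, 0.745 and 0.899 against 0.178, 0.128 and 0.0768. The highest day 18 library was below the lowest day 0 library. Day 0 means were 6.4 times the day 18 means with WT, 6.11 times with C14R and 6.47 times with the deletion. With a mean of 0.517 FPKM, TERT did not reach the minimum of 1 and was not among the tested genes. The exact permutation p was 0.1 in each construct, the smallest that 3 against 3 libraries can give, and 4.1e-05 over 9 against 9 libraries, a test added after the values were seen. Without the filter, limma gave an adjusted p of 4e-07 (WT), 5e-07 (C14R) and 9.3e-07 (deletion). Relative to DKC1, TERT was lower by 1.63 on the log2 scale at day 18 (exact permutation, adjusted p = 5.8e-05).

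TERC, the RNA part of telomerase, was the most abundant of these RNAs per length. In WT libraries it went from 320.3, 319.7 and 297 FPKM to 271, 233 and 221, and in the others from 277 to 322 down to 173 to 266. It fell by 0.37 in WT (SE 0.10, limma adjusted p = 0.0043), 0.41 in C14R (0.0022) and 0.28 in deletion libraries (0.023). These TERC calls depended on the scaling: with small RNA genes left out the values were -0.16, -0.22 and -0.06 (limma adjusted p of 0.14, 0.047 and 0.57), and with quantile normalization -0.13, -0.22 and -0.06 (0.23, 0.057 and 0.6). The day 18 mean over all constructs was 78.7% of the day 0 mean, against 15.8% for TERT. The 2 box H/ACA snoRNAs inside DKC1, SNORA36A and SNORA56, were listed at 0 in all 18 libraries. So were 4960 of the 26372 symbols, these 2 included. Whether the 2 snoRNAs were absent from the cells or not captured was not tested.

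Between the constructs, 0 of the 7 tested genes passed the threshold in any of the 6 comparisons of groups or the 2 interactions with day, by limma with Benjamini-Hochberg adjustment. In C14R against WT 0% of all tested genes were called at day 0 and 0.0363% at day 18. In deletion against WT these shares were 0.0290% and 0.0725%, and in C14R against deletion 0.0580% and 0.0290%. The interactions gave 0% for C14R and 0.0145% for deletion. The only unadjusted p under 0.05 among the 7 genes was that of NOP10 in C14R against WT at day 18. The comparisons of C14R and of deletion with WT share the WT libraries.

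NOP10 was lower in C14R than in WT by point estimate on both days. At day 0 the C14R libraries lay under all WT libraries (-0.14, 95% interval -0.32 to 0.03, exact permutation p = 0.1, limma adjusted p = 1). At day 18 the groups overlapped (-0.24, 95% interval -0.42 to -0.07, unadjusted p = 0.00965, limma adjusted p = 0.27). Without C14R replicate 1 of day 18 the estimate for NOP10 was -0.12 (adjusted p = 0.46). NHP2 in C14R was below all deletion libraries at day 0 (-0.12, 95% interval -0.29 to 0.04, limma adjusted p = 0.61), with 124, 127 and 129 FPKM against 141, 139 and 135.

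DKC1 at day 18 had estimates of 0.13 in C14R (95% interval -0.01 to 0.27) and 0.09 in deletion libraries (-0.05 to 0.23) against WT. GAR1 had estimates between -0.01 and 0.02 in the 4 comparisons of a variant with WT, with intervals from -0.22 to 0.23. Over the 7 genes and those 4 comparisons, the intervals ran from 74.7% of the WT level (NOP10, C14R at day 18) to 132% (WRAP53, deletion at day 18). TERT in the variants was 87.7% to 104% of WT across both days, with exact permutation p-values of 0.3 to 1. ZNHIT3 itself, in the same libraries, was 26.1% of WT in deletion and 56.6% in C14R libraries at day 18.

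**Figure D4:**
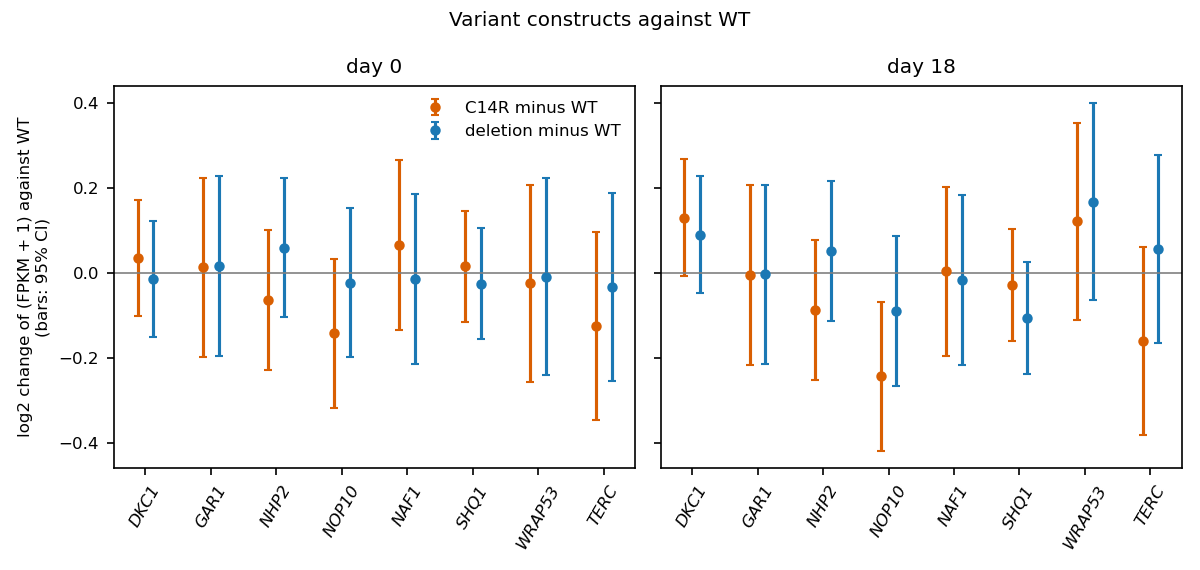
Difference in log2(FPKM + 1) between each variant construct and WT (y axis) at day 0 and day 18 for the 7 genes that passed the filter and TERC (x axis), with 95% confidence intervals from limma (3 against 3 libraries each). All intervals include 0 except that of NOP10 in C14R at day 18, from -0.42 to -0.07, which did not pass after adjustment over all genes.

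The partners of these proteins were described from fixed lists. The R2TP complex and HSP90, which help load dyskerin and other snoRNP proteins, had 5 of 7 genes called in WT from day 0 to day 18, 1 higher and 4 lower, but 3 higher and 2 lower with small RNA genes left out. Over all tested genes 72.2% were called in WT, 38.2% higher and 34.0% lower, and the share of this list called in WT was near that background. In C14R 7 of 7 were called, 3 higher and 4 lower, against 72.9% of all tested genes. In deletion libraries 6 of 7 were called, 2 higher and 4 lower, against 73.0%. In WT RUVBL2, an ATPase of R2TP, fell by 0.92 (from 68.4 ± 1.77 to 35.9 ± 3.03 FPKM, SD, n = 3) and RPAP3, its scaffold, rose by 0.29. All 8 subunits of the chaperonin TRiC, which folds WRAP53, fell in WT (median -0.51), CCT5 most with -0.94, and all 8 fell in WT under each of the 3 other scalings. Of 8 Cajal body and nucleolar partners, 7 fell and 1 rose in WT. COIL, the scaffold protein of Cajal bodies, fell by 0.96 (16.8 ± 0.256 to 8.13 ± 0.0538 FPKM), and GEMIN2, part of the SMN complex, rose by 0.37. In C14R and deletion libraries 6 of these 8 fell and 0 rose. With small RNA genes left out 6 fell in each construct, and 1 (WT), 1 (C14R) and 2 (deletion) rose.

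The 12 stand-alone pseudouridine synthases modify RNA without a guide. In WT 8 fell and 0 rose (median -0.31), where 34.0% of all tested genes fell and 38.2% rose, and 9 fell in C14R (-0.33) and 8 in deletion libraries (-0.36). With small RNA genes left out 5 (WT), 6 (C14R) and 5 (deletion) fell, and 0 rose. Under that scaling 68.6% (WT), 66.4% (C14R) and 69.4% (deletion) of the calls over all tested genes were rises. PUS1 fell by 1.52, from 8.49 ± 0.552 to 2.33 ± 0.462 FPKM (SD, n = 3, limma adjusted p = 9.1e-10). Shelterin, the complex that coats telomere ends, moved the other way: 5 of 6 genes rose with WT, 6 with C14R and 5 with the deletion, with 0 falls and medians of 0.26, 0.33 and 0.28. Over all tested genes the rises were 38.2%, 37.9% and 38.6%. TINF2, its central linker, rose by 0.36 in WT (0.33 to 0.56 under the other scalings), and no shelterin gene fell under any of them. Of 5 genes of the CST complex and telomere replication, 2 rose and 2 fell in WT, with OBFC1 (STN1) at 0.60 and TEN1 at -1.11. Among 7 genes of telomerase RNA and its processing 3 fell in WT, TERC and the 3' end trimming enzyme TOE1 (-0.67) among them, and 1 rose, PAPD5 (TENT4B), which adds tails to TERC, by 0.22. With small RNA genes left out 1 fell and 3 rose. No gene of these 7 lists, or of the cycling-cell list, passed the threshold between constructs. Of the marker lists only VIM, a mesenchymal marker, did (C14R against deletion at day 0, log2 change -0.22, limma adjusted p = 0.04).

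The genes whose log2 levels ran most parallel to each of the 7 over all 18 libraries were found by Pearson r, which here mostly records the difference between the days. For DKC1 they were EXO1 (0.997), PAICS (0.997) and EIF3E (0.996), and for GAR1 PTMA, SRSF3 and MARCKS (0.993 each). NHP2 was closest to MRPL12 (0.995), RPL13A (0.994) and RPS19 (0.993). NOP10 was closest to COX8A (0.892), ATP5G1 (0.881) and VPS25 (0.879). NAF1 ran with TOMM70A (0.98), TCF12 (0.975) and NUP35 (0.975), SHQ1 with SLC25A53 (0.939), SNUPN (0.931) and EHBP1 (0.929), and WRAP53 with IGHMBP2, CCDC101 and LARS2 (0.778 to 0.775).

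With the mean of each day subtracted, the closest genes were CBX1 (0.878), PAICS (0.871) and EIF4B (0.87) for DKC1, and ABI3BP (0.811), DHRS7 (0.766) and RDH14 (0.746) for GAR1. NHP2 was then closest to ATP6V1F (0.941), SNX17 (0.931) and IRF2BPL (0.923), and NOP10 to ATP5G1 (0.889), THOC6 (0.873) and DHRS1 (0.872). The closest to NAF1 were ZNF300 (0.854), IQCB1 (0.817) and TOMM70A (0.802), to SHQ1 PPCS (0.821), RSPRY1 (0.765) and OSGEPL1 (0.731), and to WRAP53 NPAS2 (0.716), ZSCAN9 (0.7) and MIR181A1HG (0.697). PAICS for DKC1, ATP5G1 for NOP10 and TOMM70A for NAF1 were among the 3 closest by both measures. These r values are the highest among all tested genes, and how far single libraries set them was not tested. C14R replicate 1 of day 18 had the highest DKC1 (18.7 FPKM) and the lowest NHP2 (60.9) and NOP10 (130) of that day. None of the 8 genes was among the 3 closest of these 7; TERT, under the filter, was not compared.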

How the data were processed

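The authors deposited FPKM values, 1 per gene symbol and library; the unit is taken from the name of the deposited table. The submitters' processing notes name TopHat2, STAR, Cufflinks 2.2.1 and hg38, with no role or order; the annotation, strand use and any scaling between libraries are not given in the sources used here. Per the labels' protocols, ribosomal RNA was depleted. The 18 columns were matched to samples by title, and 0 columns lacked one.

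Tests used log2(FPKM + 1) for the 13785 genes with a mean FPKM of at least 1, fitted to 6 group means over all 18 libraries with limma 3.58.1 in R 4.3.3 (mean-variance trend), with Benjamini-Hochberg adjustment over all tested genes and a threshold of 0.05. The script was tested on simulated data. Ratios to DKC1 and single levels were compared by exact two-sided permutation tests. Named genes were the 8 members, ZNHIT3, TERC, the largest rise and fall of each list in WT, list genes called between constructs, and the 3 genes most like each member. Gene positions are from GENCODE release 29 (GRCh38). The members and lists were chosen with earlier results of these data known. FPKM carry no counts, so no counting intervals are given. Some marker genes and 1 neighbouring gene are not reported here.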

Additional observations from a re-analysis of the deposited data

How the results depend on the processing

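The counts of calls and the levels of the 7 tested genes were recomputed under 10 other settings and in 18 fits that each left out 1 library. The level of TERT had 1 alternative, the fit without a filter, and each ratio to DKC1 had 22. The number of the 7 or 8 genes called from day 0 to day 18 ranged from 4, with small RNA genes left out, to 7, without a filter in WT. Fits without 1 library gave 5 to 6 in each construct. Between constructs the count was 0 under every alternative. Of 1568 estimates between constructs or of interactions with day, 96 had the other sign, and the widest was 0.331 in size. The sign turned under at least 1 alternative for 32 of the 56 combinations of gene and comparison, so most of these directions were not stable. DKC1, GAR1, NHP2 and NAF1 kept their fall and their call under every alternative in all 3 constructs. NOP10 in C14R lost its call in 21 of 28 alternatives and gained one in deletion libraries in 4, with adjusted p from 0.00088 to 0.95; the cause was not tested. Adding 1 to each FPKM turned the TERT ratio to DKC1 from -1.63 to 0.34, since 1 exceeds most TERT values. Within a single construct the ratios of all 7 genes kept their sign, with adjusted p of 0.1 to 0.4, since 3 against 3 libraries cannot pass. Same-numbered libraries did not deviate together in all pairs of any comparison (r of -0.363 to 0.168), so replicate numbers were not taken as pairs. With the replicate block, 6 genes were called for WT, 5 for C14R and 5 for the deletion, and NOP10 in C14R missed the threshold (limma adjusted p = 0.059). The scalings of the partner lists and of TERC, and the test of 9 against 9 libraries, were added after seeing the data. Depth limits TERT most: its day 18 levels rest on few fragments, whose number is not known.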
